A study of Mus musculus with 4 samples.

Results

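The 9 genes described here encode proteins that hold the poly(A) tail of an mRNA or work on it through such a protein. They are the cytoplasmic poly(A)-binding proteins Pabpc1 and Pabpc4, the nuclear Pabpn1, the PABPC1 partners Paip1 and Paip2, and the La-related genes Larp1, Larp1b, Larp4 and Larp4b. All 9 were found by symbol among the 23922 genes of the authors' deposited table. They were chosen by function, and Pabpc1 also because it had been seen among the larger differences of this table. Its difference is therefore a description.

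RNA was sequenced from E14 mouse embryonic stem cells, which were grown on gelatin with leukemia inhibitory factor. The cells had been transfected with esiRNA (pooled short interfering RNAs made by enzymatic cutting) against PNLDC1 (2 libraries) or against LUC, luciferase, a reporter with no mouse gene (2 libraries). All libraries came from total RNA after ribosomal RNA and short RNA had been depleted. PNLDC1 is a 3′ exonuclease of the PARN family, whose members remove adenosines from RNA ends. The deposited table gives each gene 1 value in each of 2 conditions, q2 and q1. The file does not state the unit, and the values are read here as FPKM (fragments per kilobase of transcript, scaled to library size), which Cuffdiff writes by default. No source used here ties either name to an esiRNA, so every difference is given as q2 against q1 and says nothing of the direction of the silencing. Pnldc1 itself had 26.8 FPKM in q2 and 18.1 FPKM in q1, a difference that did not pass (Cuffdiff q = 0.399 in the authors' deposited table).

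No value of a single library is in the table, so no SD can be given, and the authors' Cuffdiff test is the sole measure of replicate error. The labels do not say whether libraries with the same esiRNA came from separate cultures. The p-values then measure the spread between these libraries, which may be technical. The sequencing depth is not given. All 10 markers of embryonic stem cells looked up were tested by the authors, and their summed level was 3197 FPKM in q2 and 2787 FPKM in q1. None of 6 fibroblast or feeder markers was tested. They summed to 13.0 FPKM in q2 and 6.49 FPKM in q1, 4 of the 6 were at 0 in both conditions, and nearly all of the sum was Thy1. None of 8 markers of differentiated cells was tested, with sums of 7.97 FPKM in q2 and 6.20 FPKM in q1. In bulk RNA, fewer cells of a type and less RNA per cell cannot be told apart.

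A poly(A)-binding protein coats the tail and contacts the translation initiation factor eIF4G at the cap, so that tail and cap act together in translation and in protection from decay. Its C-terminal domain is a docking site for proteins with a short peptide motif called PAM2, among them PAIP1, PAIP2 and LARP4. PAIP1 promotes translation with PABPC1, and PAIP2 takes PABPC1 off the tail. PABPN1 acts earlier, in the nucleus, where it helps poly(A) polymerase extend the new tail. LARP1, studied mostly in human cells, binds the 5′ end of TOP mRNAs, which begin with a tract of pyrimidines and encode ribosomal proteins and translation factors. The mRNA of PABPC1 is a TOP mRNA, and an A-rich stretch near its 5′ end lets the protein hold back its own synthesis. LARP4 binds poly(A) and protects tails in human cells, and LARP4B binds A- and U-rich mRNA.

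The starts of 4 of these genes are shown. The 3 La-related genes among them were picked because they all had lower values in q2. Paip1 was picked because it has, at its RefSeq start, a pyrimidine tract like that at the start of TOP mRNAs. The stretches are RefSeq sequence of GRCm38.p6, on the plus strand, with 35 bases before the annotated start and 25 from it onward. Capitals mark CCGGAA, which holds GGAA, the core bound by ETS factors, in Larp4 and Larp4b. Other copies of GGAA, on either strand, are left in lower case. In Paip1 capitals mark the run of pyrimidines that begins at the start base. Larp1 held neither CCGGAA nor such a run.
Larp1: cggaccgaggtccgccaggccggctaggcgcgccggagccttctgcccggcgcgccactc
Larp4: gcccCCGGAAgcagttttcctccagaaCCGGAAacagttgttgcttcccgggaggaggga
Larp4b: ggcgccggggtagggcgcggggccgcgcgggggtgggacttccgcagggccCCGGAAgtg
Paip1: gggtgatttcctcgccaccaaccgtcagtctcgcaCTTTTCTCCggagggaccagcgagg
They lie at chr11:58009029-58009088 for Larp1, chr15:99972745-99972804 for Larp4, chr13:9093846-9093905 for Larp4b and chr13:119428565-119428624 for Paip1.

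These motifs were picked after the windows had been looked at. A window is 300 bases, 250 before the start and 50 from it, and 7 of the 9 genes have at least 1 in the table of sequences. Pabpc1 and Paip2 do not. CCGGAA, or its reverse complement TTCCGG, which can overlap it, was found 2 times in the window of Larp4, 1 time in that of Larp4b and in no other window of the 7 genes. Of all 32851 windows in the table, 14.9% held it. A tract of C followed by at least 4 more pyrimidines at the start base was found in the first of the 2 windows of Paip1, where it was 9 bases long, and in no other window of the 7 genes. It was found in 2.51% of all windows and in 19.4% of the 72 windows of cytosolic ribosomal protein genes. GENCODE starts Paip1 at 119428601, the T after the first C of this tract, and from that base the tract would not be counted. For Larp4 the RefSeq start is 99972780, inside the gene, which GENCODE begins at 99970065. Its basic coding transcripts have 4 distinct starts, and the window is placed by the RefSeq start alone. An annotated start need not be the base at which transcription begins, and a match or its absence in these letters shows nothing about a factor.

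Pabpc4 is shown for another feature, a run of A marked in capitals. The stretch lies at chr4:123282891-123282920 on the plus strand, with 20 bases before the RefSeq start and 10 from it.
Pabpc4: tAAAAAAAAAAAAAAgaaaagaaaagaaga
The run is 14 bases long, and 1.50% of all windows held a run of 12 or more. In the GENCODE M21 annotation it lies within an exon of 2 basic transcripts of Pabpc4, the earlier of which starts at 123282825. These 2 were counted among all basic transcripts, coding or not. Pabpc4 has 4 basic coding transcripts, with 4 distinct starts. GENCODE begins the gene at 123262351, so the RefSeq start used here lies inside it and is not its first annotated start.

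Of the 9 genes, 7 were tested by the authors, and Pabpc1 and Larp4 passed at a q under 0.05. Both were lower in q2, and no member passed as higher in q2. Of all 5719 tested genes 4.25% passed, 2.31% as higher in q2 and 1.94% as higher in q1. Pabpc1 was chosen from this comparison, so the count of 2 is not read against these shares. The median log2 ratio of q2 over q1 was -0.39 over the 7 tested members and 0.06 over all tested genes. Without Pabpc1 it was -0.23. The other 5 tested members did not pass. At an unadjusted p under 0.05 there were 4 members, Pabpc1, Larp4, Larp4b and Larp1, all lower in q2. Of all tested genes 18.8% met this, 8.29% with the lower value in q2.

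**Figure D1:**
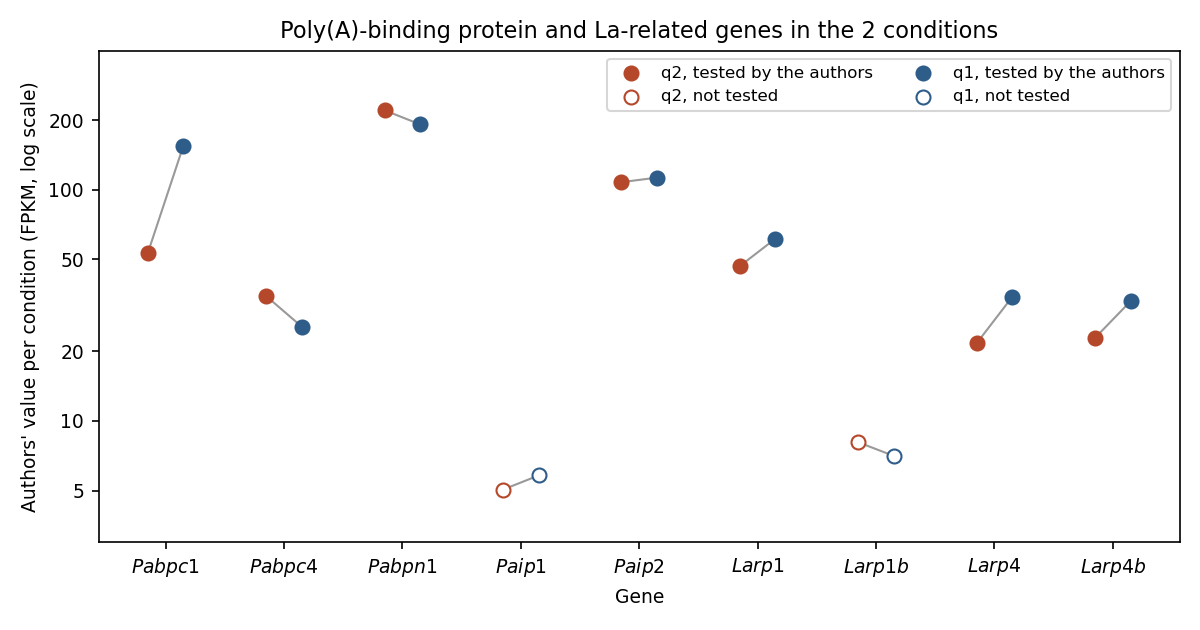
Value of each of the 9 genes in condition q2 (left point of a pair) and q1 (right point), in FPKM on a log axis, with 1 authors' value per condition and no error bar. Filled points were tested by the authors and open points were not. Pabpc1 has the steepest line, with 53.3 FPKM in q2 and 155 FPKM in q1, while Pabpc4, Pabpn1 and Larp1b slope the other way.

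Pabpc1, which encodes the most abundant poly(A)-binding protein of the cytoplasm in most cells, had 53.3 FPKM in q2 and 155 FPKM in q1. The value in q2 was 2.91-fold lower, a log2 ratio of -1.54. In rank of level it was the 1938th gene of the table in q2 and the 502nd in q1. It is encoded on the minus strand of chromosome 15, from 36595661 to 36609668 in GRCm38, and its 1 basic coding transcript has 15 exons and 2817 nt. Among all 5719 tested genes its log2 ratio ranked 40th from the low end, genes at 0 in q2 included, and 2 protein-coding genes that passed had a lower one. Of 1436 other tested protein-coding genes with a mean level within 2-fold of that of Pabpc1, none had a log2 ratio as low. Their median was 0.10 and their lowest value -1.14. Since Pabpc1 was chosen for its difference, its place among these genes is a description.

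The genes nearest to Pabpc1 among those 1436 were Cltc, Fxyd6, L1td1 and Hsph1, by the absolute difference in log2 ratio over the 2 conditions. Cltc, the clathrin heavy chain, had 37.5 FPKM in q2 and 82.9 FPKM in q1, a log2 ratio of -1.14. Fxyd6, a regulator of the sodium pump, had 78.4 FPKM in q2 and 162 FPKM in q1 (log2 ratio -1.05). L1td1, an RNA-binding protein of pluripotent cells, had a log2 ratio of -0.99, and Hsph1, a heat shock protein, had -0.97. The nearest of them thus stood 0.40 from Pabpc1 on the log2 scale.

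Pabpc4, the second cytoplasmic poly(A)-binding protein, had 34.7 FPKM in q2 and 25.6 FPKM in q1. Its log2 ratio of 0.44 has the opposite sign to that of Pabpc1, and the difference did not pass the test (Cuffdiff q = 0.353). The level of Pabpc1 was 1.54 times that of Pabpc4 in q2 and 6.07 times in q1. The levels of both genes summed to 88.0 FPKM in q2 and 181 FPKM in q1. Whether Pabpc4 differed from Pabpc1 in its response was not tested, since the table allows no such test. Pabpc4 lies on chromosome 4 from 123262351 to 123298925 on the plus strand.

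**Figure D2:**
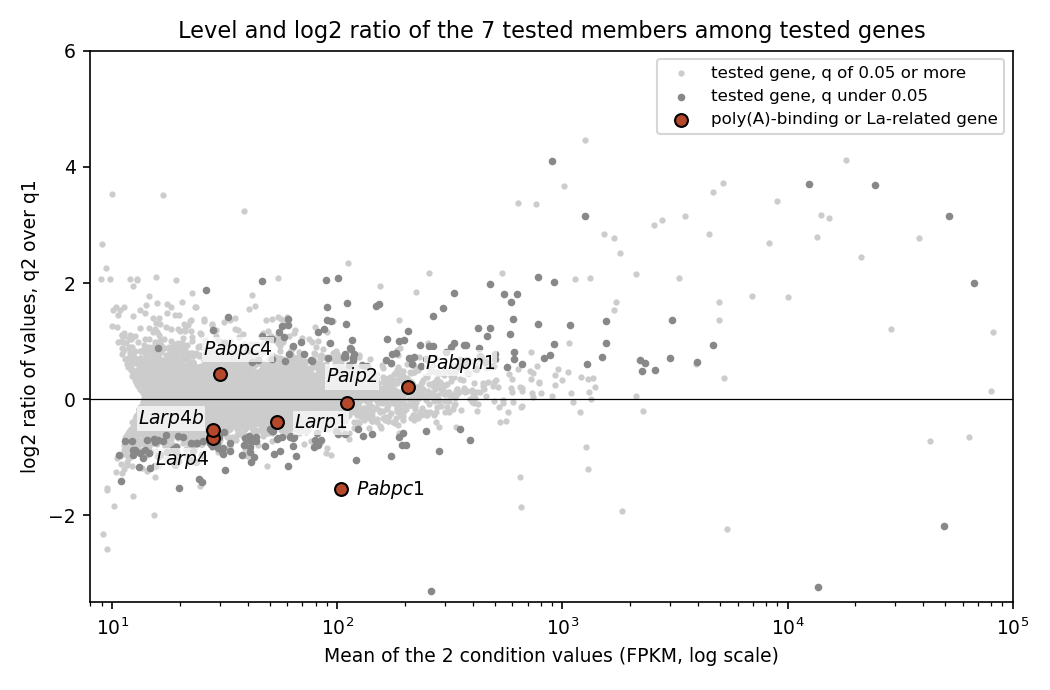
Mean of the values in q2 and q1 (FPKM, log axis) against the log2 ratio of q2 over q1, with 1 point for each tested gene above 0 in both conditions. The 7 tested members are drawn in red with names, and other genes with a q under 0.05 in dark grey. Pabpc1, chosen for its difference, lies at -1.54, while the other 6 members lie between -0.67 and 0.44. Outside the axes lie 7 genes.

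Reads of Pabpc4 may be hard to place, though no reads were examined here. Transcripts of 8 other genes match 99.1% of its transcript at 95% identity or more over stretches of at least 200 nt. Pabpc1 has 1 such gene, which matches 37.3% of the transcript. Larp4 has 2, which match 33.0%. None of these copies has a row in the table, and none was found for the other 6 members. The sources used here do not say how reads that fit several places were counted, so the values of Pabpc4 are uncertain, and to a smaller extent those of Pabpc1 and Larp4. GENCODE also places 2 small nucleolar RNA genes within the span of Pabpc4, on the same strand and outside the exons of its representative transcript.

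Pabpn1, the nuclear poly(A)-binding protein, had the highest level of the 9 genes in both conditions. It had 221 FPKM in q2 and 192 FPKM in q1, with a log2 ratio of 0.20 that did not pass (Cuffdiff q = 0.537). It lies on chromosome 14 from 54892500 to 54898169 on the plus strand. Gm20521, a protein-coding locus on the same strand, overlaps its exons, so reads of the 2 loci cannot be separated by position. The level of Pabpc1 was 0.241 times that of Pabpn1 in q2 and 0.809 times in q1.

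Paip2, which takes PABPC1 off the poly(A) tail, had close values in the conditions. They were 108 FPKM in q2 and 113 FPKM in q1 (log2 ratio -0.07, Cuffdiff q = 0.883). The paralog Paip2b, which acts in the same way, had 32.6 FPKM in q2 and 39.6 FPKM in q1 and did not pass (q = 0.516). The level of Pabpc1 was 0.495 times that of Paip2 in q2 and 1.37 times in q1, so Pabpc1 stood below Paip2 in q2 and above it in q1. Paip2 lies on chromosome 18 from 35598617 to 35617187 on the plus strand, and its exons overlap Slc23a1 on the opposite strand, which had 3.24 FPKM in q2 and 4.77 FPKM in q1. The sources do not say whether reads were counted by strand.

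Paip1, the partner that promotes translation, had the lowest level of the 9 genes, with 5.05 FPKM in q2 and 5.81 FPKM in q1. The authors did not test it. Of the 1243 genes of the table with a mean value of 5 to 8 FPKM none was tested, while 88.5% of those between 12 and 20 FPKM were. Its level therefore gives a description without a test. The level of Paip2 was 21.3 times that of Paip1 in q2 and 19.5 times in q1. Paip1 lies on chromosome 13 from 119428601 to 119458218 on the plus strand.

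The La-related genes Larp1, Larp4 and Larp4b all had lower values in q2. Larp4, which binds poly(A) and PABPC1, had 21.7 FPKM in q2 and 34.4 FPKM in q1. Its log2 ratio was -0.67 and it passed the authors' test (Cuffdiff q = 0.0255). It lies on chromosome 15, as Pabpc1 does, from 99970065 to 100016358 on the plus strand. The antisense gene 2310068J16Rik overlaps an exon of it and was listed at 0 FPKM in q2 and at 1.85 FPKM in q1. Of the 111 genes that passed as higher in q1, 82 had a log2 ratio below that of Larp4.

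Larp4b had 22.9 FPKM in q2 and 33.0 FPKM in q1, a log2 ratio of -0.53 that did not pass over all tested genes (Cuffdiff q = 0.150). The level of Larp4 was 0.949 times that of Larp4b in q2 and 1.04 times in q1, so the paralogs stood close to each other in both. Larp4b lies on chromosome 13 from 9093881 to 9174451 on the plus strand. Larp1, which binds TOP mRNAs, had 46.8 FPKM in q2 and 61.5 FPKM in q1. Its log2 ratio of -0.39 did not pass (Cuffdiff q = 0.186). It lies on chromosome 11 from 58009064 to 58062034 on the plus strand. The levels of Larp1, Larp4 and Larp4b, each lower in q2, summed to 91.4 FPKM in q2 and 129 FPKM in q1. Larp1b, left out of this sum, had the higher value in q2.

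Larp1b, the paralog of Larp1, had 8.09 FPKM in q2 and 7.06 FPKM in q1 and, at a mean in the same untested range as Paip1, has no test. It lies on chromosome 3 from 40949828 to 41040234 on the plus strand. The level of Larp1 was 5.79 times that of Larp1b in q2 and 8.71 times in q1. Of the other La-related genes, Ssb, the La protein itself, had 114 FPKM in q2 and 119 FPKM in q1 (q = 0.890). Larp7, which binds the 7SK RNA, had 31.9 FPKM in q2 and 30.7 FPKM in q1 (q = 0.935). Larp6 was below 1 FPKM in both conditions and was not tested.

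Larp1, Larp4 and Larp4b share long transcripts, and the log2 ratio moved with transcript length over the whole table. Their representative transcripts have 6617, 6530 and 5610 nt, above 93.0%, 92.7% and 88.8% of the 5259 tested protein-coding genes with a transcript. The median log2 ratio was 0.45 over 416 tested genes under 1000 nt, 0.21 over 1305 genes of 1000 to 2000 nt, 0.04 over 2157 genes of 2000 to 4000 nt and -0.16 over 1379 genes of 4000 nt or more. In the longest class 5.08% passed as higher in q1, and 19.6% had an unadjusted p under 0.05 with the higher value in q1. The transcript of Larp4 also has a low GC content, 38.7%, lower than in all but 1.22% of those genes.

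For the 200 tested genes nearest in length and GC content, a fitted plane gave -0.45 at Larp4, -0.17 at Larp4b and -0.02 at Larp1. With that trend subtracted, the log2 ratio was -0.21 for Larp4, -0.36 for Larp4b and -0.38 for Larp1. For Pabpc1, with 2817 nt and a GC content of 47.8%, the trend was -0.04 and the remaining log2 ratio -1.50. Pabpc4 kept 0.33 of its 0.44. For Pabpn1, with a representative transcript of 1030 nt, the trend was 0.40 and the remainder -0.20, the opposite sign. The basic coding transcripts of Pabpn1 run from 700 to 1775 nt, so its place on the trend depends on the transcript chosen. The part of length and GC content in these differences was not tested.

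**Figure D3:**
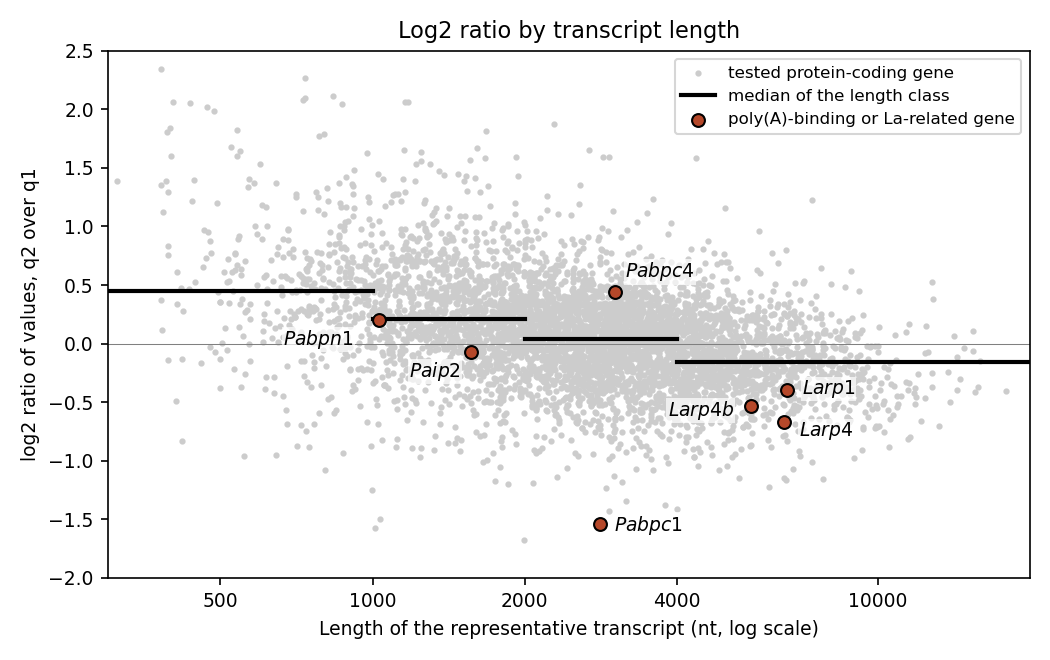
Length of the representative transcript (nt, log axis) against the log2 ratio of q2 over q1 for tested protein-coding genes, with the 7 tested members in red and a black bar for the median of each length class. The medians step down from 0.45 in the shortest class to -0.16 in the longest, where Larp1, Larp4 and Larp4b lie below the bar; 8 genes lie outside the axes.

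The order of the levels was not the same in the conditions. In q2 the order from the highest was Pabpn1, Paip2, Pabpc1, Larp1, Pabpc4, Larp4b, Larp4, Larp1b and Paip1. In q1 Pabpc1 stood above Paip2, and Pabpc4 stood below Larp4 and Larp4b. With no spread for a condition, it cannot be said which neighbours in these orders differ. Members of the poly(A)-binding family outside the 9 genes were at or near 0. Pabpc1l, Pabpc2, Pabpc6 and Pabpn1l were listed at 0 in both conditions, Pabpc5 was listed at 0 in q2 and at 0.322 FPKM in q1, and Pabpc4l had 0.768 FPKM in q2 and 1.32 FPKM in q1. The tested Zc3h14, a nuclear zinc finger protein that binds poly(A), had 20.2 FPKM in q2 and 24.0 FPKM in q1 (q = 0.688).

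The member Larp4, whose protein docks on PABPC1 through PAM2, passed, as given above. In a list of 12 other genes of such proteins 7 were tested. Of these 0 passed the Cuffdiff test in either direction, with 3 at an unadjusted p under 0.05. The median log2 ratio of the 7 was -0.16, against 0.06 over all tested genes. The 3 had log2 ratios of both signs, from -0.53 to 0.62, and 18.8% of all tested genes had an unadjusted p under 0.05. Gspt1, the release factor eRF3a, had 43.1 FPKM in q2 and 56.4 FPKM in q1 (q = 0.184). Nfx1 had a log2 ratio of -0.27, the deubiquitinase Usp10 -0.16 and the ubiquitin ligase Mkrn1 0.07.

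RNA-binding proteins found in complexes with PABPC1 were all tested, and 2 of 10 passed, both lower in q2. Hnrnpd, which is AUF1 and binds AU-rich mRNA, had 12.6 FPKM in q2 and 26.4 FPKM in q1 (log2 ratio -1.07, Cuffdiff q = 0.00367). The helicase Ddx3x had 147 FPKM in q2 and 229 FPKM in q1 (log2 ratio -0.65, q = 0.00367). The other 8 did not pass, among them Hnrnpu (-0.20) and Ybx1 (0.04). The median log2 ratio of the 10 was -0.21. Of all tested genes, 1.94% passed in that direction and the median was 0.06. At an unadjusted p under 0.05 there were 4 of the 10, all lower in q2. Of all tested genes 8.29% had such a p in that direction.

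Among cap-binding factors, which meet PABPC1 through eIF4G, 1 of 10 tested genes passed, as higher in q2, against 2.31% of all tested genes. It was Eif4ebp1, the repressor that takes eIF4E away from eIF4G, with 433 FPKM in q2 and 284 FPKM in q1 (log2 ratio 0.61, Cuffdiff q = 0.0263). The scaffolds Eif4g1 (0.20, q = 0.479) and Eif4g2 (-0.28, q = 0.302) and the helicase cofactor Eif4b (-0.21) did not pass, and the list median was -0.01. An unadjusted p under 0.05 was found for 3 of the 10, with log2 ratios of both signs, against 18.8% of all tested genes. None of the 6 tested genes of mTORC1 and its inputs, the kinase complex that controls LARP1 and TOP mRNAs, passed by Cuffdiff q, and the unadjusted p was under 0.05 for 0 of them. Mtor had a log2 ratio of -0.05, Tsc2 -0.13, Rheb -0.46 and Akt1s1 0.47, with a list median of -0.09.

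Genes that make the tail or take nuclear poly(A) RNA to decay did not pass either. Of the 18 tested genes of cleavage and polyadenylation 0 passed the Cuffdiff test, 1 had an unadjusted p under 0.05, and the median log2 ratio was -0.06. Papola, the main poly(A) polymerase, had 76.4 FPKM in q2 and 93.3 FPKM in q1 (q = 0.357), Cpsf1 had a log2 ratio of 0.37, Cpsf3, the nuclease, 0.21 and Cstf1 -0.01. PAXT, the complex that links PABPN1 to the exosome, had 3 tested genes. By Cuffdiff q none passed, while the unadjusted p was under 0.05 for 2 of them, both lower in q2. Over all tested genes 8.29% had such a p with the lower value in q2. Rbm27 (-0.54, q = 0.105), Rbm26 (-0.45, q = 0.213) and the helicase Skiv2l2 (-0.28, q = 0.422) all had lower values in q2.

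Other TOP mRNAs, the class to which that of Pabpc1 belongs, went both ways. Of the 14 tested that encode no ribosomal protein, 2 passed as higher in q2 and 1 as higher in q1, and the median log2 ratio was 0.06. Over all tested genes 2.31% passed as higher in q2 and 1.94% as higher in q1. An unadjusted p under 0.05 was found for 7 of the 14, with log2 ratios of both signs, against 18.8% of all tested genes. The elongation factor subunit Eef1b2 had 462 FPKM in q2 and 291 FPKM in q1 (log2 ratio 0.67, Cuffdiff q = 0.00367), and Gnb2l1, the ribosome-bound RACK1, had 3005 FPKM in q2 and 2128 FPKM in q1 (0.50, q = 0.0321). Eif3f, an eIF3 subunit, had 35.8 FPKM in q2 and 68.5 FPKM in q1 (-0.94, q = 0.0372), and Eef1a1 had a log2 ratio of 0.05. Ribosomal protein mRNAs, the core of the class, had a median of 0.51 over 59 tested genes. Of these 14 passed, each with the higher value in q2, and 26 had an unadjusted p under 0.05. A further 23 of 82 such genes were not tested, with no value above 8.65 FPKM in q2 or 12.0 FPKM in q1. Near-identical copies were looked for only for the 9 members. How such copies affect the ribosomal protein values is therefore not known. Many of these mRNAs are short: 36 of the 59 have a representative transcript under 1000 nt, the class whose median was 0.45. In that class 10.6% of the tested protein-coding genes passed as higher in q2. Among the 14 that passed, the largest log2 ratios were those of Rpsa, Rpl41, Rpl7a and Rps19, with values of 1.43, 1.37, 1.34 and 1.29. Pabpc1, at -1.54, lay below the TOP mRNAs named here, which is a description because it was chosen for its difference.

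**Figure D4:**
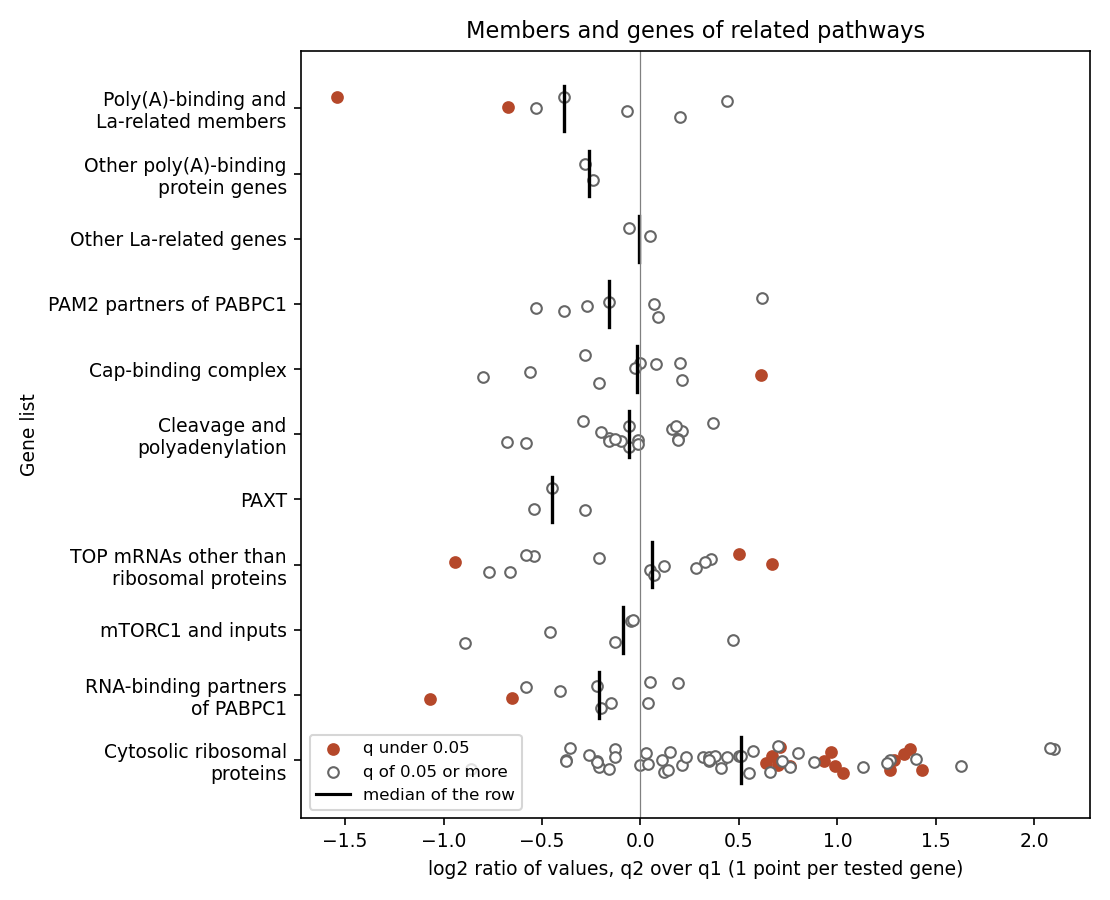
The log2 ratio of q2 over q1 of each tested gene, with the 7 tested members in the top row and 10 lists of related genes under it. Red points have a q under 0.05, open points do not, and a black bar marks the row's median. Pabpc1, chosen for its difference, is the leftmost point of all rows at -1.54. The ribosomal protein row, with a median of 0.51, extends furthest to the right.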

How the data were processed

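The deposited table is a Cuffdiff table of gene differences. The submitters' processing notes name TopHat, Cuffdiff, mm10 and GRCm38.p4. Their versions and options, and the annotation, are not given in the sources. The 4 libraries were grouped by their titles, and the authors combined them into 2 conditions. The authors' values are read as FPKM (fragments per kilobase, scaled to the reads of the library), Cuffdiff's default, since the file header names no unit. The authors' p-value, q-value and test statistic, a signed score, were used as deposited, per the file headers.

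Log2 ratios (q2 over q1) were computed again, without a pseudocount, because spreadsheet errors stand in the deposited column. Genes pass at a q under 0.05. The deposited q-values were reproduced by Benjamini-Hochberg adjustment over the 5719 tested genes to within 5.24e-07. Of these, 65 at 0 in a condition were left out of medians. Transcripts came from GENCODE M21 (GRCm38) for 95.4% of tested genes, 1 per gene by APPRIS rank and then length, and copies were found with BLAST+ 2.17.0. Tables were made with Python 3.11.15 and pandas 2.3.3, and the adjustment and the trend were tested on simulated data.

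The members and the gene lists were chosen with earlier results of these data known. Named genes are the members, Pnldc1, up to 4 tested genes per list (those that passed first, by size of log2 ratio, then those of highest mean value) and the 4 nearest to Pabpc1. Family genes outside this rule are named because they complete the families.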

Additional observations from a re-analysis of the deposited data

How the results depend on the processing

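The count of members that passed was 2 (none higher in q2) and stayed at 2 at a q under 0.10 and when q was adjusted again without 258 histone, ribosomal protein and short structural RNA genes. It was 1, Pabpc1, at a q under 0.01, and 4 at an unadjusted p under 0.05. Pabpc1, chosen for its difference, is part of every one of these counts, so their stability is a description. Of all tested genes 4.25% passed at a q under 0.05 and 18.8% had an unadjusted p under 0.05. The shares at the other settings were not computed. A minimum of 10 FPKM removed no tested gene. Of the 130 tested genes in the lists of related pathways 20 passed, 17 higher in q2 and 3 higher in q1, against 13 at a q under 0.01, 26 at a q under 0.10, 46 at an unadjusted p under 0.05 and 6, with 3 in each direction, without the 258 genes, which include the ribosomal proteins themselves. The median log2 ratio of the members, -0.39, was -0.45 relative to the median of all tested genes, -0.42 relative to the upper quartiles, -0.39 with 1 FPKM added to each value, -0.21 with the trend in length and GC content removed and -0.23 without Pabpc1. Pabpn1 alone changed sign, to -0.20 with that trend removed. Over these settings the log2 ratio of Pabpc1 ranged from -1.60 to -1.50. No paired analysis was possible because the table holds 1 value per condition, and for the same reason no library could be left out. The depth behind each value is unknown.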
